A study of Mus musculus with 12 samples.

Results

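Smooth muscle of the gut and bladder is set in motion not only by acetylcholine acting on muscarinic receptors but by a range of other transmitters and local mediators, and 10 genes for the receptors of these signals are described here: Hrh1, Htr2b, Tacr1, Tacr2, Adra1a, Adrb3, P2rx1, Bdkrb2, Oxtr and Ednra. They were taken by gene name from tables that list 54532 genes in each of 12 libraries, and all 10 were found, each as 1 row per library. The list was chosen with the results of the knockout comparison in these same libraries already known, so every difference between knockout and control mice given for the 10 genes is a description and carries no test. The difference between the 2 tissues was tested in control mice, whose libraries are also 1 side of the knockout comparison.

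Whole-tissue RNA from colon and urinary bladder of male mice with floxed Yap1 and Wwtr1, the genes of the transcriptional co-activators YAP and TAZ, was sequenced. Y/T KO mice carried Myh11-CreERT2, a tamoxifen-inducible Cre recombinase under the smooth muscle myosin heavy chain promoter, and Ctrl mice were floxed but Cre-negative. Both genotypes received 1 mg tamoxifen per day in 5 injections at an age of 5 to 7 weeks, and tissue was taken 7 days after the first injection. Each of the 4 groups (Ctrl colon, Y/T KO colon, Ctrl bladder, Y/T KO bladder) held 3 libraries, each from a single mouse, and 3 of the 9 mice, numbers 788, 783 and 780, gave both tissues. Cre acts only in cells that use the Myh11 promoter, vascular smooth muscle included, whereas the libraries hold every cell of the tissue. From the libraries alone, fewer smooth muscle cells and less RNA per cell cannot be told apart. In colon sections, by its methods from later days, the paper found no change in the number of smooth muscle nuclei.

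All but P2rx1 encode receptors that couple to G proteins. Receptors for histamine (Hrh1), serotonin (Htr2b), tachykinins (Tacr1 and Tacr2), noradrenaline (Adra1a), bradykinin (Bdkrb2), oxytocin (Oxtr) and endothelin (Ednra) signal mainly through the Gq family: phospholipase C releases calcium from internal stores, and the muscle contracts. Adrb3 encodes the adrenergic receptor that, through Gs and cyclic AMP, relaxes the detrusor muscle of the bladder during filling. P2rx1 encodes an ATP-gated cation channel, the receptor for the ATP that parasympathetic nerves release in the rodent bladder together with acetylcholine.

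The starts of these genes are shown because 4 of them, Hrh1, Htr2b, Tacr2 and Ednra, gave the genotype differences described below and have an upstream stretch with at most 12 annotated exonic bases. RefSeq windows (GRCm38.p6), from 250 bases before to 50 bases after a transcription start, were at hand for 8 of the 10 genes in 11 windows, and Adra1a and Adrb3 had none. The 250 bases before the start are printed in the direction of transcription, with capitals for the core motif of TEAD factors, the DNA-binding partners of YAP and TAZ, searched as GGAATG on both strands. Hrh1 lies on the plus strand at chr6:114397686-114397935, upstream of the first of 4 listed starts, Htr2b on the minus strand at chr1:86111981-86112230, Tacr2 on the plus strand at chr10:62252188-62252437 and Ednra on the minus strand at chr8:77724453-77724702.
Hrh1: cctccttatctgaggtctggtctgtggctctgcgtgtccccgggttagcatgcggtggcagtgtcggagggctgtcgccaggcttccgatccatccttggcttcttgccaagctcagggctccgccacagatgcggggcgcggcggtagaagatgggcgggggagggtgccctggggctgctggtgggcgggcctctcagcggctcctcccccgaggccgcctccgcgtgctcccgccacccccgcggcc
Htr2b: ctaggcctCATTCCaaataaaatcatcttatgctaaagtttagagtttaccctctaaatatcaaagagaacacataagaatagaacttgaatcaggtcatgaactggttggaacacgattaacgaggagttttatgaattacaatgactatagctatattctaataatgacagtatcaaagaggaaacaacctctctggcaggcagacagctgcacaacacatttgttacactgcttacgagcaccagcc
Tacr2: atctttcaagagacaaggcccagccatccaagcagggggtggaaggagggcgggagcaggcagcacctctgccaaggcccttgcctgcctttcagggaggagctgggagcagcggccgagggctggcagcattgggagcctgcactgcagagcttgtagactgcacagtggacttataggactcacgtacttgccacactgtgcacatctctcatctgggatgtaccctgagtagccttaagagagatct
Ednra: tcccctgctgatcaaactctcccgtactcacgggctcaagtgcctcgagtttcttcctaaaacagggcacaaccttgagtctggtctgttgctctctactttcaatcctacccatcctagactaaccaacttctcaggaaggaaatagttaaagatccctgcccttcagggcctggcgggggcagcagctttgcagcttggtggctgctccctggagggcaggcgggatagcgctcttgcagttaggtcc
Of the 11 windows 1, that of Htr2b, held the TEAD core, beginning 242 bases before the start (offset -242). Of 32851 windows of the same length 14.7% hold it. With 11 windows, 4 of them of Hrh1, the count is too small to be read against that share. The CArG box, the motif of serum response factor, was in 0 of the 11 windows and in 1.63% of all windows. These matches describe the letters of the windows and nothing more. G and C made up 71.7% of the first Hrh1 window and 41.0% of the Htr2b window.

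Values are given as transcripts per 1000000 (TPM), which are corrected for transcript length, as the authors deposited them for each library. Between 2.80 and 3.94 gigabases of aligned sequence stood behind each library, read from the ratio of coverage to FPKM that most genes share. Yap1 was 98.5 to 109.8 TPM in Ctrl bladder and 69.4 to 72.1 TPM in Y/T KO bladder, which do not overlap, but 45.8 to 54.9 and 41.3 to 47.0 TPM in the colon, which do; Wwtr1 overlapped in both tissues. A gene-level TPM counts the exons outside the deleted part and the cells without Cre, so it is a weak check of the labels. The 13 smooth muscle markers summed to 8852 to 9677 TPM in Ctrl colon and 5770 to 6780 TPM in Y/T KO colon, and to 39480 to 52760 TPM in Ctrl bladder and 20590 to 37580 TPM in Y/T KO bladder. Some bladder libraries also held RNA of neighbouring tissue: Pbsn, a prostate gene, was 967 TPM in Ctrl bladder 784 and 311 TPM in Y/T KO bladder 780, and Myh4, of fast skeletal muscle, was 46.1 TPM in Ctrl bladder 784, 409 and 432 TPM in Y/T KO bladders 783 and 780 and listed at 0 in the other 3.

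**Figure D1:**
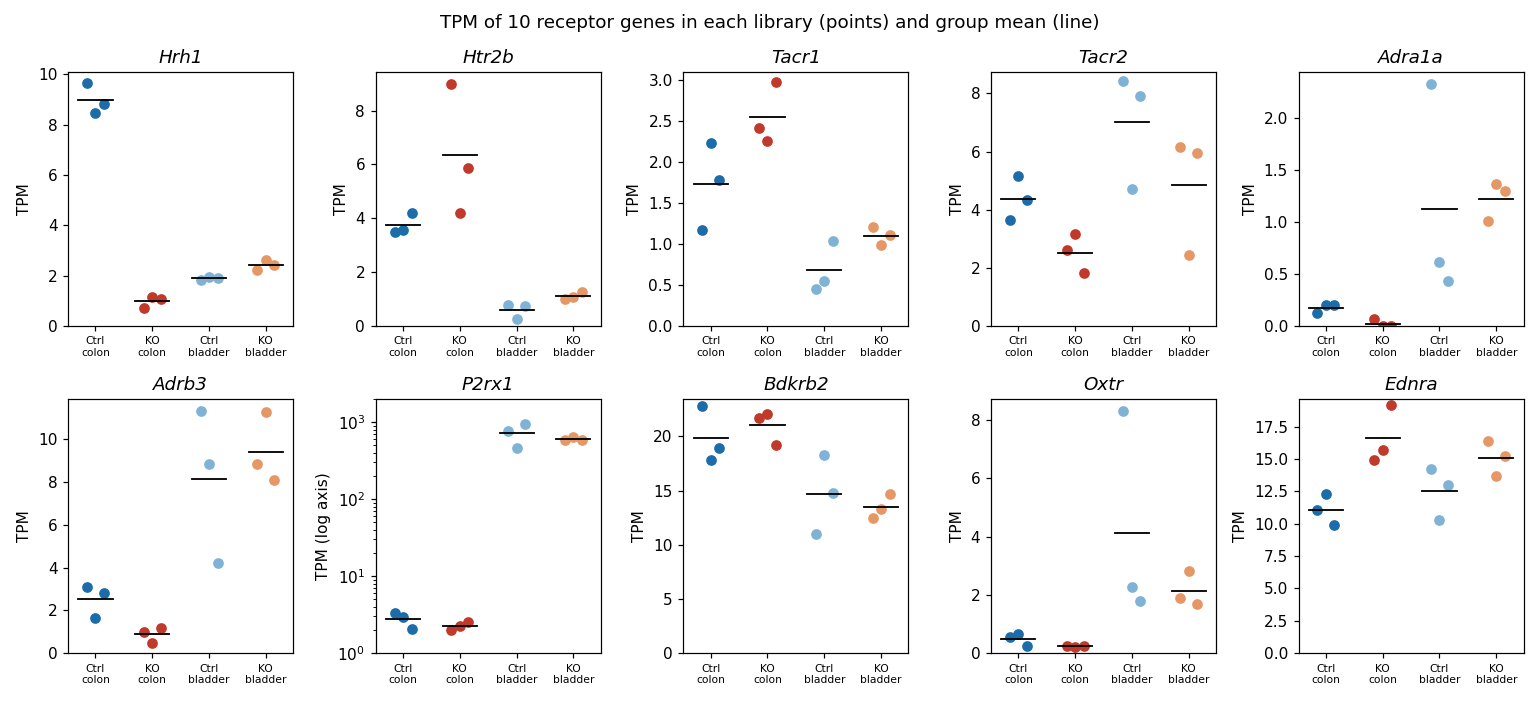
TPM of the 10 receptor genes (vertical axis; a log axis for P2rx1, linear from 0 for the others) in the 3 libraries of each group (points) with the group mean (line). Hrh1 stands at 8.46 to 9.66 TPM in Ctrl colon and at 0.717 to 1.14 TPM in Y/T KO colon, and P2rx1 lies at 464 TPM or more in each bladder library and at 3.35 TPM or less in each colon library.

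In Ctrl colon the receptor for bradykinin led the 10 genes. Bdkrb2 averaged 19.9 ± 2.63 TPM (SD, n = 3), followed by Ednra at 11.1 ± 1.2, Hrh1 at 8.97 ± 0.614, Tacr2 at 4.38 ± 0.753, Htr2b at 3.76 ± 0.394, P2rx1 at 2.78 ± 0.681, Adrb3 at 2.52 ± 0.768 and Tacr1 at 1.73 ± 0.538 TPM. Oxtr (0.477 ± 0.217 TPM) and Adra1a (0.175 ± 0.0471 TPM) closed the order. Neighbours whose libraries overlapped were Tacr2 with Htr2b, P2rx1 with Adrb3, and Adrb3 with Tacr1. The remaining neighbours in the order did not overlap.

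In Ctrl bladder the order was another one. P2rx1 averaged 725 ± 243 TPM (n = 3), far above Bdkrb2 at 14.7 ± 3.64, Ednra at 12.5 ± 2.0, Adrb3 at 8.12 ± 3.62, Tacr2 at 7.01 ± 2.01 and Oxtr at 4.12 ± 3.64 TPM. Hrh1 (1.90 ± 0.0645), Adra1a (1.12 ± 1.04), Tacr1 (0.679 ± 0.316) and Htr2b (0.597 ± 0.288 TPM) were low. Apart from P2rx1, every neighbouring pair in this order overlapped between libraries, so the order below P2rx1 rests on means only.

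These levels depend for 2 genes on the unit in which they are given. The files also hold a coverage value, which spreads a gene's aligned bases over all its exons, whereas FPKM and TPM follow the lengths of the transcripts the reads were assigned to. Where a gene has 1 transcript (Tacr2, Bdkrb2) the ratio of coverage to FPKM equalled that of the library, a share of 1.00. For Hrh1 the share was 0.0878 in the 9 libraries outside Y/T KO colon and 0.0158, 0.0171 and 0.0205 in the 3 Y/T KO colons, and for Adrb3 it was 0.0806 to 0.123. Of 19773 genes expressed in the 12 libraries 4.20% had a median share below 0.1. TPM of Hrh1 and Adrb3 may therefore stand for short stretches of these genes, and which transcripts were used is not given in the sources used here. The shortest transcript in GENCODE M21 has 476 of 4450 exonic bases for Hrh1 and 450 of 3376 for Adrb3. Both are larger parts than the shares above, so no transcript listed there accounts for them. The reason for the low shares was not tested. When coverage was scaled to sum to 1000000 over all genes (scaled coverage), Hrh1 in Ctrl colon moved from the third to the seventh place (scaled coverage 1.27 ± 0.0932) and Adrb3 in Ctrl bladder from the fourth to the sixth (1.25 ± 0.501).

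The question put by the genotype comparison was which genes change in smooth muscle tissue when YAP and TAZ are removed. For the 10 receptors the answer differed from gene to gene. In the colon Hrh1, Tacr2 and Adrb3 lay lower in every Y/T KO library than in any Ctrl library, and Tacr1 and Ednra lay higher. In the bladder Hrh1 and Htr2b lay higher, and Tacr1 did so only after rescaling. Of the 8 members that passed the filter of 0.5 TPM in at least 3 colon libraries (Adra1a and Oxtr did not), 5 had groups that did not overlap after rescaling, 3 lower and 2 higher, where 16.1% of the 17500 genes tested had such groups. In the bladder all 10 passed and 3 did not overlap, all 3 higher, against 22% of 18237 genes. With limma at an adjusted p of 0.05, 1 of 8 members passed in the colon (Hrh1), where 0.137% of genes passed, and 0 of 10 in the bladder, where 0.302% did. Since the list was chosen with these values known, nothing is read from those counts.

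**Figure D2:**
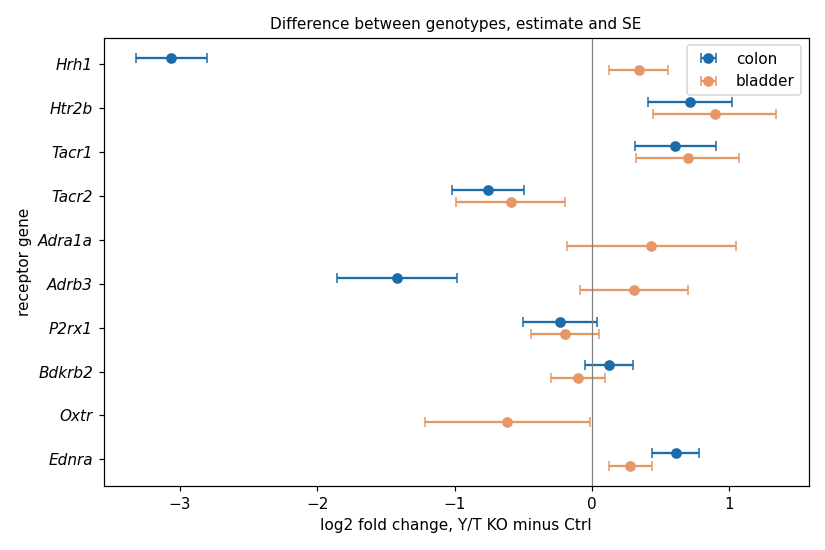
Log2 fold change, Y/T KO minus Ctrl (horizontal axis), of each receptor gene in colon and bladder, as the limma estimate (point) with its SE (bar), on rescaled TPM with 0.1 added. Hrh1 is at -3.06 in the colon and 0.34 in the bladder, while Htr2b, Tacr1 and Ednra are above 0 and Tacr2 and P2rx1 below 0 in both. Adra1a and Oxtr were not fitted in the colon.

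Hrh1 encodes the histamine receptor through which mast cell histamine contracts intestinal muscle. It was 9.66, 8.46 and 8.81 TPM in Ctrl colons 788, 786 and 787 and 0.717, 1.14 and 1.08 TPM in Y/T KO colons 759, 783 and 780. All 3 knockout libraries were far below the lowest control. The log2 difference was -3.06 (SE 0.26). Without Ctrl colon 786 or 787 the estimate no longer passed the adjusted threshold, although leaving out any single library kept it between -3.17 and -2.87.

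Coverage showed how little sequence lay behind Hrh1 in the knockout colon. The gene's exons (GENCODE M21, 4450 exonic bases) held about 6759, 6033 and 5608 aligned bases in the Ctrl colons, and about 101, 130 and 167 in the Y/T KO colons. As scaled coverage, Hrh1 was 1.19 to 1.37 in Ctrl colon and 0.0183 to 0.0361 in Y/T KO colon, a ratio of means of 44.2, whereas the ratio of means on TPM was 9.20. The groups were separate in both units, and the size of the difference was not. On coverage the log2 difference with 0.1 added was -3.40 and did not pass the adjusted threshold (the alternative was chosen after seeing the data).

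**Figure D3:**
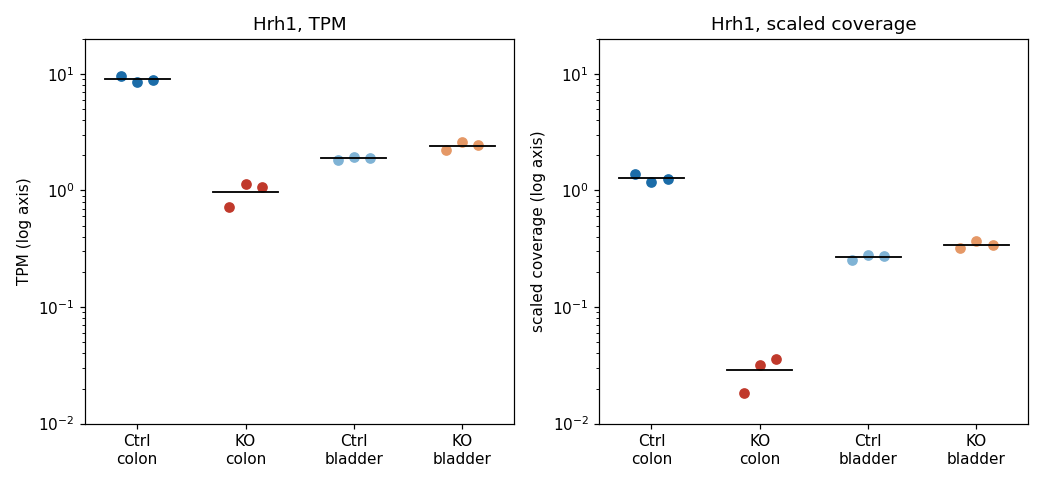
Hrh1 in the 12 libraries (points) with group means (lines), left as TPM and right as scaled coverage, both on log axes of the same range. The Y/T KO colons lie 9.20 times below the Ctrl colons by TPM means and 44.2 times below by coverage means, while in the bladder the Y/T KO libraries lie slightly above the Ctrl libraries in both.

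In the bladder Hrh1 was 1.82, 1.95 and 1.91 TPM in Ctrl 784, 785 and 788, compared with 2.23, 2.63 and 2.44 TPM in Y/T KO 782, 783 and 780. Every knockout library was above every control, by 0.34 (SE 0.22) on the log2 scale, so the gene lay on opposite sides of its controls in the 2 tissues. About 1136 to 1189 aligned bases stood behind it in Ctrl bladder and 1316 to 1466 in Y/T KO bladder, a depth at which a difference of this size rests on few reads. In the 12-library model the knockout effect in the colon minus that in the bladder was -3.43 (SE 0.31) for Hrh1. It was the only 1 of the 10 receptors past the adjusted threshold, where 0.0607% of 19773 genes passed. The list was chosen with the knockout values known, so nothing is read from that call. The next largest were Adrb3 (-1.76, SE 0.62) and Adra1a (-1.69, SE 0.78). For Adrb3 the value was -1.13 on scaled coverage. Adra1a did not pass the filter in the colon, and its value hung on the added 0.1 TPM. It was -0.64 with 0.5 TPM added and -0.37 with 1 TPM added.

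Of the other histamine receptors, Hrh2, the receptor of acid secretion, was at most 0.501 TPM in the colon and 0.824 to 1.55 TPM in the bladder, and Hrh3, which dampens transmitter release from nerves, was at most 0.0801 TPM in the colon and 2.42 to 4.48 TPM in the bladder. Hdc, the enzyme that makes histamine, ranged from 1.25 to 6.45 TPM in Ctrl colon and 0.632 to 4.56 TPM in Y/T KO colon. Hnmt, which inactivates histamine inside cells, was 4.87 to 7.45 and 4.01 to 6.45 TPM. Aoc1, the diamine oxidase of the colon epithelium, was 191 to 218 TPM in Ctrl against 103 to 171 TPM in Y/T KO colon, which do not overlap. The 6 mast cell markers summed to 14.03 to 21.5 TPM in Ctrl colon and 17.0 to 30.04 TPM in Y/T KO colon. Fcer1a was listed at 0 in every colon but Y/T KO colon 759, at 0.63 TPM.

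Htr2b, the serotonin receptor of gut muscle and interstitial cells, lay higher in the knockout in both tissues. In the colon it was 3.49, 3.58 and 4.21 TPM in Ctrl 788, 786 and 787, compared with 9.0, 4.18 and 5.85 TPM in Y/T KO 759, 783 and 780. Y/T KO colon 783 sat within the control range, so the groups overlapped, with a log2 difference of 0.71 (SE 0.31). In the bladder it was 0.776, 0.264 and 0.752 TPM in Ctrl 784, 785 and 788 against 1.01, 1.07 and 1.24 TPM in Y/T KO 782, 783 and 780. These did not overlap, with a log2 difference of 0.90 (SE 0.45), which fell to 0.48 without Ctrl bladder 785, the lowest library.

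Among other genes of serotonin, Htr4, which speeds gut transit from enteric nerves, was 8.79 to 13.9 TPM in Ctrl colon and 7.17 to 10.6 TPM in Y/T KO colon. Tph1, the enzyme of serotonin synthesis in enterochromaffin cells, was 13.5 to 17.4 TPM in Ctrl against 4.69 to 9.45 TPM in Y/T KO colon, without overlap. The uptake carrier Slc6a4 was 21.6 to 34.5 and 17.4 to 25.7 TPM. In the bladder Htr1b was 2.23 to 4.11 TPM in Ctrl against 0.309 to 0.732 TPM in Y/T KO. The neuronal channel subunit Htr3a spread from 1.81 to 31.9 TPM over the 3 Ctrl bladders alone.

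The 2 tachykinin receptors went in different directions. Tacr1, the substance P receptor of interstitial cells and neurons, was 1.17, 2.24 and 1.79 TPM in Ctrl colons 788, 786 and 787 and 2.42, 2.26 and 2.98 TPM in Y/T KO colons 759, 783 and 780. The knockout libraries lay just above the highest control (log2 difference 0.61, SE 0.29). In the bladder Tacr1 was 0.446, 0.553 and 1.04 TPM in Ctrl 784, 785 and 788, compared with 1.2, 0.993 and 1.11 TPM in Y/T KO 782, 783 and 780. Ctrl bladder 788 and Y/T KO bladder 783 were separated only after rescaling (log2 difference 0.70, SE 0.38).

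Tacr2, the neurokinin A receptor of the muscle itself, lay lower. It was 3.65, 5.15 and 4.33 TPM in Ctrl colons and 2.61, 3.14 and 1.81 TPM in Y/T KO colons, in the same order of mice, without overlap (log2 difference -0.76, SE 0.26). In the bladder 8.41, 4.71 and 7.91 TPM in Ctrl faced 6.14, 2.45 and 5.94 TPM in Y/T KO, which overlap (log2 difference -0.59, SE 0.39). Without Y/T KO bladder 783 that difference shrank to -0.20. Tac1, which encodes both substance P and neurokinin A, was 37.1 to 48.3 TPM in Ctrl colon and 46.5 to 82.2 TPM in Y/T KO colon, and in the bladder 23.5 TPM in Ctrl 784, with 15.8 TPM in Y/T KO 783, but at most 0.114 TPM in 3 others.

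Adra1a, a contractile receptor of the bladder neck and prostate, was barely seen in the colon, with 0.121, 0.204 and 0.201 TPM in Ctrl 788, 786 and 787, compared with 0.0635 TPM in Y/T KO 759. It was listed at 0 in Y/T KO colons 783 and 780. In the bladder it was 2.32, 0.614 and 0.426 TPM in Ctrl 784, 785 and 788, compared with 1.01, 1.36 and 1.29 TPM in Y/T KO 782, 783 and 780. Ctrl bladder 784, the library with 967 TPM of Pbsn, stood above all others. The log2 difference of 0.43 (SE 0.62) became 1.11 without Ctrl bladder 784 and -0.03 without Ctrl bladder 788, and the part of prostate RNA in it was not tested.

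Adrb3 lay lower in Y/T KO colon. It was 3.09, 1.64 and 2.81 TPM in Ctrl 788, 786 and 787, compared with 0.980, 0.464 and 1.19 TPM in Y/T KO 759, 783 and 780, without overlap (log2 difference -1.42, SE 0.44). In the bladder 11.3, 8.82 and 4.21 TPM in Ctrl 784, 785 and 788, compared with 8.84, 11.3 and 8.11 TPM in Y/T KO 782, 783 and 780 overlapped (0.31, SE 0.39), and without Ctrl bladder 788 the difference was -0.13. About 289 to 816 aligned bases in Y/T KO colon and 1224 to 1715 in Ctrl colon stood behind the colon values. Besides detrusor muscle, adipocytes express this receptor strongly, and adipocyte genes differed between libraries: Adipoq was 19.9, 23.4 and 4.66 TPM in Ctrl colons 788, 786 and 787 and 4.45 to 4.75 TPM in Y/T KO colons, and 212, 94.8 and 46.9 TPM in Ctrl bladders 784, 785 and 788 against 154 to 276 TPM in Y/T KO bladders. The 8 adipocyte markers summed to 149 to 368 TPM in Ctrl against 159 to 181 TPM in Y/T KO colon, and to 1906 to 3969 and 3254 to 5124 TPM in the bladder, with Ucp1 listed at 0 in all colons. The part of fat in Adrb3 was not tested in either tissue.

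**Figure D4:**
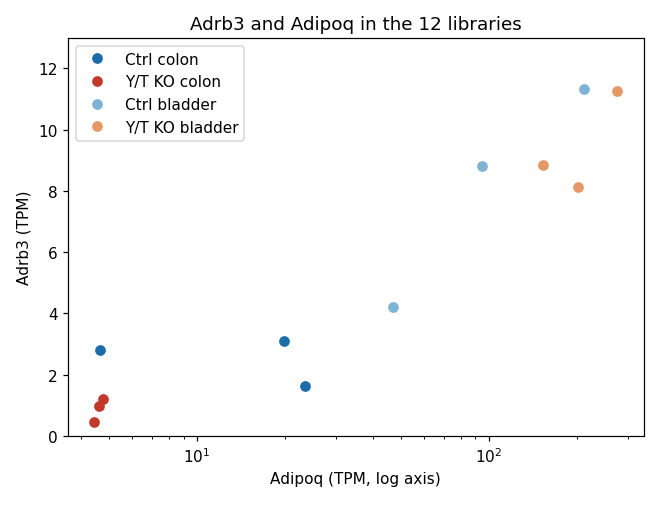
Adrb3 (vertical axis, TPM) against Adipoq (horizontal axis, TPM, log scale), 1 point for each of the 12 libraries, coloured by group. Y/T KO colons lie at 0.464 to 1.19 TPM of Adrb3 and 4.45 to 4.75 TPM of Adipoq, the bladders at 4.21 to 11.3 and 46.9 to 276 TPM, and Ctrl colon 787 combines 2.81 TPM of Adrb3 with 4.66 TPM of Adipoq.

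Of the other adrenergic genes, Adra2a, an inhibitory receptor on nerve endings and epithelium, was 2.28 to 3.05 TPM in Ctrl colon against 2.61 to 4.4 TPM in Y/T KO colon, and Adrb1 was 1.27 to 1.35 against 0.582 to 1.16 TPM. In the bladder Adra1b was 1.18 to 1.70 TPM in Ctrl against 1.23 to 1.5 TPM in Y/T KO. Dbh, the enzyme of noradrenaline synthesis in sympathetic nerves, ranged from 0.312 to 18.7 TPM over the 3 Ctrl bladders.

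P2rx1 did not separate the genotypes in either tissue. In the bladder it was 765, 464 and 946 TPM in Ctrl 784, 785 and 788, compared with 592, 647 and 580.4 TPM in Y/T KO 782, 783 and 780. The knockout libraries sat inside the control range (log2 difference -0.20, SE 0.25). In the colon 3.35, 2.96 and 2.02 TPM in Ctrl faced 1.97, 2.24 and 2.56 TPM in Y/T KO (-0.23, SE 0.27). P2rx1 is also a platelet receptor. The 6 platelet markers summed to 69.8 to 94.2 TPM in the colon and 87.6 to 133 TPM in the bladder, most of it Pf4 (67.6 to 122.6 TPM), and Ppbp, Gp9 and Treml1 were at most 0.810 TPM in any library. Of the 4 platelet markers tested between the tissues of Ctrl mice, 2 were higher and 2 lower in the colon (median log2 difference -0.02). Itga2b, the only 1 past the adjusted threshold, was 1.15 to 2.48 TPM in Ctrl colon and 5.15 to 8.77 TPM in Ctrl bladder. Gp1bb was 14.45 TPM in Y/T KO bladder 783 and at most 1.84 TPM in the other libraries. The part of platelets in P2rx1 was not tested.

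In the purinergic system, 7 of the 21 other genes tested in the colon had groups that did not overlap, and 6 of 19 in the bladder, where 16.1% and 22% of all genes tested had such groups. P2ry14, a receptor for UDP-sugars, was 19.2 to 22.4 TPM in Ctrl colon and 9.31 to 12.8 TPM in Y/T KO colon. P2rx5 was 2.91 to 5.00 TPM in Ctrl bladder and 1.35 to 2.37 TPM in Y/T KO bladder. P2rx6 was 2.37 to 9.61 and 9.60 to 15.0 TPM there. Nt5e, which makes adenosine outside cells, was 42.7 to 68.3 TPM in Ctrl bladder and 79.6 to 93.0 TPM in Y/T KO bladder. P2ry1, through which ATP relaxes gut muscle by way of neighbouring interstitial cells, was 13.5 to 19.3 TPM in Ctrl colon and 13.2 to 18.8 TPM in Y/T KO colon.

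Bdkrb2, the constitutive bradykinin receptor, did not separate the genotypes in either tissue. It was 22.9, 17.8 and 18.9 TPM in Ctrl colons 788, 786 and 787 and 21.7, 22.1 and 19.2 TPM in Y/T KO colons (log2 difference 0.12, SE 0.17). In the bladder it was 10.99, 18.3 and 14.8 TPM in Ctrl against 12.4, 13.3 and 14.7 TPM in Y/T KO (-0.10, SE 0.20). Its inducible counterpart Bdkrb1, known to rise in inflamed tissue, was 0.751 to 1.69 TPM in Ctrl colon and 2.06 to 8.0 TPM in Y/T KO colon. Klk1, a kallikrein that frees bradykinin-like peptides, was 778 to 1269 TPM and 2077 to 2296 TPM in the same groups, and Cpm, a peptidase that trims kinins, was 41.1 to 63.6 and 12.2 to 28.0 TPM. None of these 3 overlapped between the genotypes.

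Oxtr, which contracts uterine and male tract muscle, was low in the colon, with 0.536, 0.659 and 0.237 TPM in Ctrl 788, 786 and 787, compared with 0.257, 0.214 and 0.254 TPM in Y/T KO 759, 783 and 780. In the bladder Ctrl 784 stood apart at 8.32 TPM, against 2.28 and 1.77 TPM in Ctrl 785 and 788 and 1.88, 2.82 and 1.70 TPM in Y/T KO. The log2 difference of -0.62 (SE 0.60) became 0.07 without Ctrl bladder 784, so 1 library sets its direction. That library had the most Pbsn, while Y/T KO bladder 780, with 311 TPM of Pbsn, had the lowest Oxtr, and the part of prostate RNA was not tested. The vasopressin receptor Avpr1a, which oxytocin can also bind, was 30.2 to 47.3 TPM in Ctrl bladder and 29.9 to 42.9 TPM in Y/T KO bladder, and 1.13 to 1.75 and 0.871 to 1.48 TPM in the colon.

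Ednra, the endothelin receptor of vascular and visceral muscle, lay higher in the knockout. It was 11.1, 12.3 and 9.92 TPM in Ctrl colons 788, 786 and 787 and 14.9, 15.7 and 19.2 TPM in Y/T KO colons 759, 783 and 780, without overlap (log2 difference 0.61, SE 0.17). In the bladder 14.2, 10.3 and 13.0 TPM in Ctrl against 16.4, 13.7 and 15.2 TPM in Y/T KO overlapped (0.28, SE 0.15). Ednrb, the receptor of endothelium, glia and muscle, was 9.14 to 13.1 TPM in Ctrl colon and 10.2 to 11.6 TPM in Y/T KO colon. The ligand Edn1 was 46.0 to 66.1 and 20.6 to 40.5 TPM, without overlap, and the converting enzyme Ece1 54.2 to 62.4 and 44.4 to 59.6 TPM. The 6 vascular mural markers summed to 117 to 137 TPM in Ctrl colon and 93.9 to 113 TPM in Y/T KO colon. Of the 6, 4 had a log2 difference below 0 and 2 above. Rgs5, the most abundant, was 82.4 to 95.1 against 41.4 to 62.5 TPM, and Notch3 2.045 to 3.20 against 1.05 to 1.785 TPM. Both lay lower in Y/T KO colon without overlap. Kcnj8 was 14.4 to 16.7 against 22.6 to 30.01 TPM and Cspg4 4.14 to 6.36 against 8.58 to 15.1 TPM. These 2 lay higher there without overlap, as Ednra did. The part of mural cells in Ednra was not tested.

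Genes of the same signalling systems outside the 10 members were read by count. Of 179 listed genes, which include 9 ligand systems, other receptors of contraction and relaxation and the Gq, Gs and cyclic AMP pathways, 135 were tested in the colon, and 0 passed an adjusted p of 0.05 with limma, with 22 at an unadjusted p below 0.05, as were 9.73% of all genes tested. In the bladder 0 of 142 passed, with 23 at an unadjusted p below 0.05, against 14.8% of all genes. The median log2 difference of the listed genes was -0.11 in the colon and 0.00 in the bladder, when that of all genes was 0.01 and 0.00. In the colon 33 of the 135 and in the bladder 36 of the 142 did not overlap between genotypes, against 16.1% and 22% of all genes.

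The muscarinic receptors, listed here for comparison, lay lower in Y/T KO libraries of both tissues. Neither Chrm2 nor Chrm3 passed the adjusted threshold here in either tissue. The paper, using the count method DESeq2, reported Chrm2 as reduced in both tissues and Chrm3 as reduced in the bladder. For Chrm3 in the colon it reported no significance by adjusted p. Chrm2 was 8.14 to 10.7 TPM in Ctrl colon and 1.34 to 3.23 TPM in Y/T KO colon (log2 difference -2.28, SE 0.34), and 3.48 to 12.1 against 1.60 to 1.79 TPM in the bladder. Chrm3, the main contractile receptor of detrusor, was 15.4 to 24.9 TPM in Ctrl bladder and 6.46 to 8.87 TPM in Y/T KO bladder (-1.39, SE 0.22), and 1.64 to 3.97 against 0.585 to 1.12 TPM in the colon. Of the angiotensin receptors, Agtr1a was 5.36 to 6.10 TPM in Ctrl colon and 2.75 to 4.82 TPM in Y/T KO colon. Rgs2, which shortens Gq signals, was 17.8 to 25.9 TPM in Ctrl colon and 33.6 to 42.7 TPM in Y/T KO colon, and 66.3 to 281 against 419.6 to 618 TPM in the bladder. Gnaq, the Gq subunit itself, was 35.1 to 47.4 TPM in Ctrl colon and 31.3 to 36.1 TPM in Y/T KO colon, which overlap as deposited and were separated only by rescaling.

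Which receptors mark the colon and which the bladder was tested in a model of all 12 libraries. In Ctrl mice 8 of the 10 differed between the tissues with limma at an adjusted p of 0.05, 4 higher in the colon and 4 higher in the bladder, against 50.4% of all 19773 genes. Of the 4 higher in the bladder, Adra1a and Oxtr did not pass the filter within the colon. They entered the model through the tissue in which they were higher, so their differences are given without p. The count of 8 includes them and is not read against that share. It was 7 on TPM as deposited and 6 to 8 when single libraries were left out. The Ctrl libraries are also part of the knockout comparison known when the list was chosen. The limma p-values between Ctrl tissues are therefore not independent of that choice. In Y/T KO mice 9 of 10 passed the threshold, against 51.3%. The list was chosen with the knockout values known, so nothing is read from that count. Differences in Y/T KO mice are given without p. With about every other gene past the threshold, a call between these organs is common, and the size of each difference says more than the call.

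**Figure D5:**
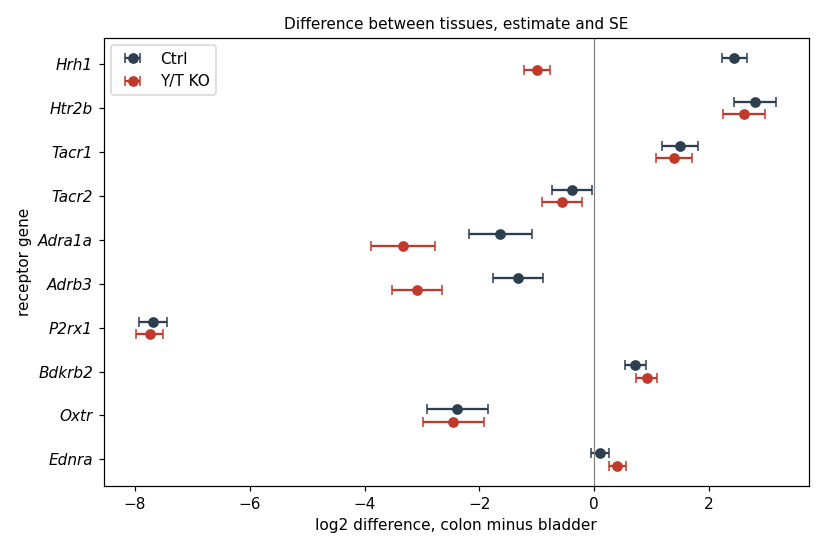
Log2 difference, colon minus bladder (horizontal axis), of each receptor gene in Ctrl and in Y/T KO mice, as the limma estimate (point) with its SE (bar). P2rx1 lies near -7.7 in both genotypes, Htr2b and Tacr1 lie above 0 in both, and Hrh1 is at 2.44 in Ctrl and -0.998 in Y/T KO.

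P2rx1 gave the widest gap, with 206 times the level in Ctrl bladder over Ctrl colon (log2 difference -7.69, SE 0.24, limma adjusted p = 4.55e-10) and a log2 difference of -7.75 (SE 0.24) in Y/T KO mice. Oxtr was 5.24 times higher in Ctrl bladder, and its log2 difference went from -2.39 to -1.71 without Ctrl bladder 784. Adra1a was 3.11 times higher in Ctrl bladder, with a log2 difference of -1.64 that was -0.96 without Ctrl bladder 784. These ratios come from values with 0.1 TPM added, which shrinks them at levels this low. Mean TPM in Ctrl bladder and Ctrl colon was 4.12 and 0.477 for Oxtr, and 1.12 and 0.175 for Adra1a. Adrb3 was 2.52 times higher in Ctrl bladder and did not pass without Ctrl colon 786, Ctrl bladder 784 or Ctrl bladder 785 (log2 differences -1.01, -1.02 and -1.22). For this gene too, Ctrl colon is the higher side of the known knockout difference, so no p is given. In Y/T KO mice the log2 difference of Adrb3 was -3.09 (SE 0.44) on TPM and -2.25 on scaled coverage. Its colon values in both genotypes are among those the list was chosen on.

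Higher in the colon were Htr2b, Hrh1, Tacr1 and Bdkrb2. Htr2b was 6.98 times higher in Ctrl colon (95% interval 3.97 to 12.3, limma adjusted p = 7.01e-05) and 6.11 times higher in Y/T KO colon. Hrh1 was 5.41 times higher in Ctrl colon (3.88 to 7.56). Ctrl colon is also the higher side of its knockout difference, known at the choice, so no p is given. In Y/T KO mice the log2 difference was -0.998 (SE 0.22), and -1.66 on scaled coverage, so that the bladder held more. Tacr1 was 2.82 times higher in Ctrl colon (limma adjusted p = 0.00196), and Bdkrb2 1.64 times (limma adjusted p = 0.00677). For Bdkrb2 the call was lost on TPM as deposited, with a log2 difference of 0.46 instead of 0.72 (limma adjusted p = 0.0564).

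Tacr2 and Ednra did not pass between the tissues of Ctrl mice. For Tacr2 the colon was 0.768 times the bladder, with a 95% interval from 0.451 to 1.31, and for Ednra 1.07 times, from 0.846 to 1.35. In Y/T KO mice Ednra was 1.32 times higher in the colon (95% interval 1.05 to 1.67). These tissue differences are relative to the median gene, and on TPM as deposited the median of all genes was itself shifted to -0.24 (colon minus bladder, Ctrl).

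All 13 smooth muscle markers passed as higher in Ctrl bladder than in Ctrl colon. Htr2b, Hrh1, Tacr1 and Bdkrb2 were thus higher in the organ with the lower marker level. Which cells carry them was not tested.

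Genes with the most similar pattern were sought for each receptor whose genotypes did not overlap in a tissue, by Pearson correlation of log2 values over the 12 libraries, which share 2 tissues and 9 mice, so that the tissue contrast weighs heavily in it. For Hrh1 they were Cela2a (r = 0.918), Prss2 (r = 0.910) and 2210010C04Rik (r = 0.909), the first 2 being digestive enzymes of the exocrine pancreas. Cela2a was 1.63 to 19.9 TPM and Prss2 1.26 to 20.7 TPM in Ctrl colon, and both were listed at 0 in the other 9 libraries. The 7 pancreas markers summed to 520 to 811 TPM in Ctrl colon and 617 to 771 TPM in Y/T KO colon, most of it Cela1. Of the 6 tested in the colon, 5 lay lower in Y/T KO without overlap and Cela1 overlapped, where 16.1% of all genes tested did not overlap. Prss2, Cela3b, Cpa1 and Pnlip passed the filter only through the Ctrl colons, where they were higher. The count of 5 is therefore not read against that share. Prss2, Cela3b and Cpa1 were listed at 0 in all Y/T KO colons, and Pnlip was at most 0.202 and Ctrb1 at most 1.08 TPM there. Amy2a5 was at most 0.273 TPM in any colon. The part of pancreatic RNA in Hrh1 was not tested. For Htr2b they were Gm19620 (r = 0.983), Cutc (r = 0.980) and Ndufv2 (r = 0.978), and for Tacr1 Gm7511 (r = 0.965), Pex7 (r = 0.956) and Arrdc4 (r = 0.946). For Tacr2 they were Gm37499 (r = 0.871), Shank2 (r = 0.855) and Zscan20 (r = 0.839), for Adrb3 Gm43857 (r = 0.967), Il17d (r = 0.948) and Atl1 (r = 0.947), and for Ednra Gm5561 (r = 0.899), Rspo3 (r = 0.899) and Sdhaf2 (r = 0.886).

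The position of the genes bears on how well they can be counted. Coordinates are those of the files (GRCm38). Htr2b (chromosome 1, 86099026 to 86111970, minus strand) lies inside Psmd1 on the other strand, and Ednra (chromosome 8, 77663031 to 77724464, minus strand) inside 4933431K23Rik on the other strand. Adrb3 (chromosome 8, 27225776 to 27250616, minus strand) overlaps the antisense gene Gm45470. Whether strand was used in counting is not given in the sources used here, although the libraries were stranded, so reads of such partners may not be told apart. Hrh1 (chromosome 6, 114397936 to 114483296, plus strand) has 5 transcripts of 476 to 3782 bases in GENCODE M21.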

How the data were processed

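Per the labels and the study's methods, polyadenylated RNA was sequenced from stranded libraries, aligned to GRCm38 with HISAT2 and quantified with StringTie; versions and annotation release are not given in the sources used here. The authors deposited 1 table per library with TPM (transcripts per 1000000), FPKM (fragments per kilobase per 1000000) and coverage (mean reads per exonic base) for each gene; read counts were not used here, so no count model was run. TPM was summed by gene ID, divided by median-of-ratios size factors and tested as log2(TPM + 0.1) with limma 3.58.1 in R 4.3.3 (trended, robust empirical Bayes), on genes at 0.5 TPM or more in at least 3 libraries, with Benjamini-Hochberg adjustment over all genes. Genotypes were compared within each tissue (6 libraries), tissues and the interaction over all 12. Replicates are separate mice. The members and all gene lists were chosen with earlier results of these data known. All members were named, then listed genes past the adjusted threshold, genes of each member's own system and the 3 most correlated genes. Alternatives were other pseudocounts, filters and units, each library left out, and mouse as a block.
The numbers of the 3 mice that gave both tissues pair the samples, by the labels. Deviations of their colon and bladder from the group means correlated at -0.0091, 0.0674 and 0.0437. The limma step was tested on simulated data. Some listed genes are not reported here.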

Additional observations from a re-analysis of the deposited data

Results flagged for a closer look

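The knockout effect on Hrh1 differed between the tissues. The effect in the colon minus that in the bladder was -3.43 on the log2 scale (SE 0.31): its Y/T KO libraries were below every control in the colon and above every control in the bladder. It passed the adjusted threshold of the limma interaction and kept passing when any 1 of the 12 libraries was left out, between -3.55 and -3.25. On scaled coverage it was -3.77. Hrh1 was chosen with its colon values known, so this stands as a description. No other receptor met this condition, and groups of 3 libraries were not examined for outlying samples.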

How the results depend on the processing

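Across the alternatives, most values of the receptors kept their direction and their side of the threshold. Members called in the colon numbered 1, and 0 on scaled coverage (chosen after seeing the data) and 0 to 1 when single libraries were left out. Members whose genotypes did not overlap in the bladder numbered 3, and 2 on TPM as deposited. They numbered 1 with a mean TPM of at least 1, 1 on FPKM as deposited and 1 on scaled coverage. Without single libraries they numbered 3 to 5. A stricter filter tests fewer members. Pathway list genes called in the colon numbered 0, and 0 to 1 without single libraries, the 1 without Y/T KO colon 759. The log2 difference between tissues of Ednra in Ctrl, 0.10, turned to -0.16 on TPM as deposited, -0.0245 on FPKM as deposited, and -0.042 (without Ctrl bladder 785) to 0.2117 (without Ctrl bladder 784) when single libraries were left out. The cause was not tested. With mouse as a replicate block, 8 members were called between tissues in Ctrl and 9 in Y/T KO, as without it, and the consensus correlation within mouse was 0.0514; the block changed no call of a member. Within colon or within bladder no paired analysis was possible because no mouse gave both genotypes. The pseudocount set the size of the low values: Hrh1 in the colon was -2.66 with 0.5 TPM and -2.32 with 1 TPM. Depth limits Hrh1, Adrb3, Adra1a and Oxtr in the colon, where differences rest on few aligned bases.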
